A study of Homo sapiens with 4 samples.

Results

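The 10 genes described here lie on the short arm of human chromosome 9, between 19 and 27 Mb (hg38), in and beside a stretch of 5.57 Mb in which neither peak list holds a peak. They are CDKN2A, CDKN2B, MTAP, DMRTA1, IFNB1, IFNE, IFNA1, KLHL9, ELAVL2 and MLLT3, 10 of the 19126 protein-coding genes of the autosomes in the RefSeq table. They were chosen by the peak positions themselves, because both deposited lists are empty over most of this locus. The presence or absence of peaks over them is therefore a description and was not tested.

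The peaks come from chromatin immunoprecipitation followed by sequencing (ChIP-seq) with an antibody against the HA tag in a subclone of MDA-MB-231, a cell line from a triple-negative breast tumour. The labels give PD-L1 as the precipitated protein, with 2 ChIP samples and 2 input samples, all of wild-type genotype and untreated. PD-L1 is a membrane protein, encoded by CD274, that restrains T cells through PD-1. The replicates are described as independent and biological, each with its own list of broad peaks. Whether the list of replicate 2 rests on that replicate alone is unknown, since its peak names hold the unexplained word Merge. The sources used here do not give how the tag was introduced or how the subclone was derived, and no mock precipitation was analysed here. Replicate 1 had 166313 autosomal peaks and replicate 2 had 93106. Enrichment was low, with a median fold over the caller's background of 3.14 in replicate 1 and 2.27 in replicate 2. No values of the input libraries were used here, their role in peak calling is not stated in the labels, and the depth of all libraries is unknown.

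The 9p21 locus is a tumour suppressor region. CDKN2A encodes p16INK4a, an inhibitor of the cyclin D kinases CDK4 and CDK6 that holds the retinoblastoma protein active, and, from another first exon, p14ARF, which binds MDM2. CDKN2B encodes p15INK4b, a related inhibitor. Many cancers lose the locus on both chromosomes, often with the neighbouring MTAP and the type I interferon cluster, and MDA-MB-231 is a line for which loss of CDKN2A is on record. In a peak list, DNA that is missing, sequence to which reads cannot be assigned and chromatin that was not recovered cannot be told apart, and copy number in the subclone was not tested.

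The promoters show what kind of sequence the lists left without a peak. The 5 windows below hold the 250 bases before an annotated start (RefSeq, GRCh38.p14), 5′ to 3′ on the transcribed strand, with CpG dinucleotides in capitals. They are shown because they differ in CpG content, from the CpG-rich windows of MLLT3 and CDKN2A to the CpG-poorer one of MTAP, and none has a peak within 1 kb of its start. CDKN2A has a pair of windows, the lower-coordinate one before the start of the p16INK4a transcript and the other before that of p14ARF.
MLLT3, chr9:20622500-20622749, minus strand: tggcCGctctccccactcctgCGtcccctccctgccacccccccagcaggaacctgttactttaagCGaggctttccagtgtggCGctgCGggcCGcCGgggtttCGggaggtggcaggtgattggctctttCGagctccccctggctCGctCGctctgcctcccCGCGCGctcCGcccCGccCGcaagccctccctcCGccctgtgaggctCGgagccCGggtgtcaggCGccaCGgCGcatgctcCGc
MTAP, chr9:21802386-21802635, plus strand: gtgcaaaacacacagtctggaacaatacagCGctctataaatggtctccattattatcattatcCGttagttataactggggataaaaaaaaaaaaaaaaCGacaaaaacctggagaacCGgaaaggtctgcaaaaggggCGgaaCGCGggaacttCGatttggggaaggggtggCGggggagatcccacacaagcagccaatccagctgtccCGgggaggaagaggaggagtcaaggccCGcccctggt
CDKN2A, chr9:21974858-21975107, minus strand: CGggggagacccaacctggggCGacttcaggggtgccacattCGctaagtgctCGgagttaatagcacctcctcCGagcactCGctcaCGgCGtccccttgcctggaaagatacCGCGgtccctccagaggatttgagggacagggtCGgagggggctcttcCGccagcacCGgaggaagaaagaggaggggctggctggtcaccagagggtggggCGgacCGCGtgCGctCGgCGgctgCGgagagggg
CDKN2A, chr9:21995325-21995574, minus strand: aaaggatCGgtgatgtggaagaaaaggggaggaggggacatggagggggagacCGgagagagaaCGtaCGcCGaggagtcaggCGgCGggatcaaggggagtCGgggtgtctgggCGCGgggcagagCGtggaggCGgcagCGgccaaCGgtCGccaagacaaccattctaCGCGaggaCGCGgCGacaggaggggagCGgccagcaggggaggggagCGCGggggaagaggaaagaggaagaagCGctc
CDKN2B, chr9:22009306-22009555, minus strand: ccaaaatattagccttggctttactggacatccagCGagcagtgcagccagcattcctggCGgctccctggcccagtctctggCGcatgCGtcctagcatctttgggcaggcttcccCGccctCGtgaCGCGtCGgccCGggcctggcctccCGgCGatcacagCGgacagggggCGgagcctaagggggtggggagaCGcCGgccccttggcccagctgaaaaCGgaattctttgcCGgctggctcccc
These windows hold 24 CpG in MLLT3, 11 in MTAP, 20 and 24 in CDKN2A and 18 in CDKN2B. The median of 21156 promoter windows of autosomal protein-coding genes was 17, with the 10% and 90% points at 2 and 33.

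The interferon promoters are poor in CpG. In the windows of IFNB1 and IFNA1, capitals mark the letters AANNGAAA, the core recognised by interferon regulatory factors, searched on both strands.
IFNB1, chr9:21077943-21078192, minus strand: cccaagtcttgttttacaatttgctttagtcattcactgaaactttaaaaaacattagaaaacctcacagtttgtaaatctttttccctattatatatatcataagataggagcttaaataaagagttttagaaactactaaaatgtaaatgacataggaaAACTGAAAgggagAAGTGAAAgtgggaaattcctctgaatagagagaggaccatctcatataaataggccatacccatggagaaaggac
IFNA1, chr9:21440189-21440438, plus strand: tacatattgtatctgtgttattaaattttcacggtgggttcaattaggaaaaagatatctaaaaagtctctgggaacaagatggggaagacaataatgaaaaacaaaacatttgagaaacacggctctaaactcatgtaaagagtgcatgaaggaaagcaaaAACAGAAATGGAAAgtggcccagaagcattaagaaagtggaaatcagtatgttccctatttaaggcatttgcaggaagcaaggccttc
IFNB1 held 2 separate matches and IFNA1 held 2 that overlap each other, and 17.2% of all such windows held at least 1 on either strand. IFNB1 also held 1 TATAAA, the letters where the general transcription machinery often binds, which 9.03% of windows held on either strand. CpG numbered 0 in IFNB1 and 2 in IFNA1. The window of IFNE, not shown, held 2 CpG, 0 matches of AANNGAAA and 0 of TATAAA. Neither set of letters was limited to interferon genes. A window of ELAVL2 held 1 AANNGAAA, and MTAP and another window of ELAVL2 held 1 TATAAA each. A match is a description of the letters and not of binding.

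The stretch without peaks reached from just above MLLT3 to a gene-poor segment below CAAP1. In replicate 1 it ran from 9:20624144 to 26189157, a length of 5.57 Mb, and in replicate 2 from 9:19408611 to 26220059, a length of 6.81 Mb. The stretch of replicate 1 lay wholly inside that of replicate 2, so it is also the stretch of the pooled lists. For scale, the median distance between neighbouring peaks on the autosomes was 3.55 kb in replicate 1 and 8.36 kb in replicate 2. The mean autosomal density was 57.9 peaks per Mb for replicate 1 and 32.4 for replicate 2, at which a segment of 5.57 Mb would hold 322 and 180.

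The lists nearly met at the upper border and lay far apart at the lower one. On the lower side, replicate 1 ended with a peak at 9:20623504-20624143, with a fold of 3.72 that 4.88% of its peaks reached and a −log10 q of 2.47. Replicate 2 ended with a peak at 9:19407913-19408610, with a fold of 2.50 that 21.4% of its peaks reached and a −log10 q of 1.55, so that the lower borders lay 1216 kb apart. On the upper side, replicate 1 resumed at 9:26189158-26189401 (fold 3.30, −log10 q 1.91). Replicate 2 resumed at 9:26220060-26220290, with a fold of 3.63 that 0.224% of its peaks reached. The upper borders thus lay 30.9 kb apart. A fold and a −log10 q here are the values that the authors' caller gave to each peak.

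**Figure D1:**
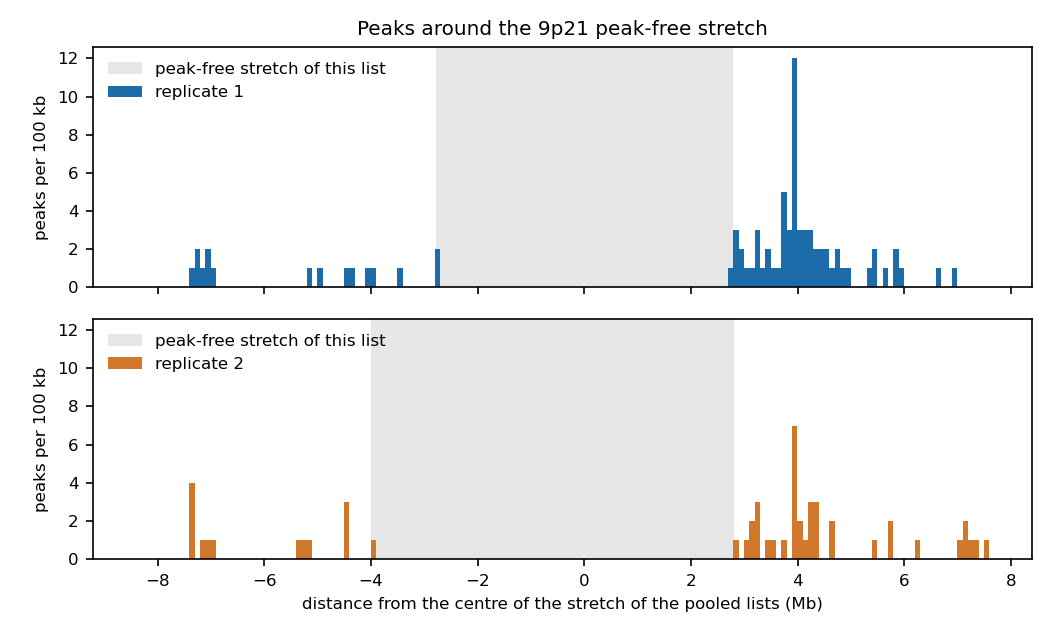
Peaks per 100 kb bin in replicate 1 and replicate 2, plotted by the distance in Mb from the centre of the stretch of the pooled lists, with the peak-free stretch of each list shaded. No peak falls in the shaded 5.57 Mb of replicate 1 or 6.81 Mb of replicate 2, peaks resume at the upper border and thin out again higher up, and the lower side holds few.

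The sides of the stretch were unlike each other. In the 1 Mb above it there were 20 peaks in replicate 1 and 10 in replicate 2. In the 1 Mb below it there were 3 and 0, the 0 because this 1 Mb lies inside the longer stretch of replicate 2. The sparse side went on far beyond that: from 12 to 19 Mb of chromosome 9 the density was 1.86 per Mb for replicate 1 and 2.71 for replicate 2, and from 7 to 12 Mb 0 and 0.4. Above the stretch the density was 22 and 10 per Mb from 27 to 29 Mb and 5 and 3.67 from 29 to 32 Mb, a segment with 1 protein-coding gene. From 32 to 38 Mb, with 16 protein-coding genes per Mb, it was 87.8 and 44, above the values of the whole chromosome (48.4 and 24.4). The stretch held 4.67 protein-coding genes per Mb, against 6.16 in the adjoining segment from 19 Mb to its lower border, 2.29 from 12 to 19 Mb and 6.66 on the autosomes.

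Of the 10 genes, 9 had no peak of replicate 1 within their span and 10 kb on each side, and 10 had none of replicate 2. Among all autosomal protein-coding genes, 14.1% had no peak in that window in replicate 1 and 23.5% in replicate 2. Counting a gene once if either list had a peak, 1 of the 10 had one, against 88.1% of all genes. Since the members were picked for their lack of peaks, these shares show the background and nothing is read from the count. Windows of similar width (0.5 to 2 times) usually held several peaks elsewhere. Their median ranged from 4 peaks for the windows of the small genes to 10 for those as wide as that of MLLT3 in replicate 1, and from 2 to 6 in replicate 2.

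**Figure D2:**
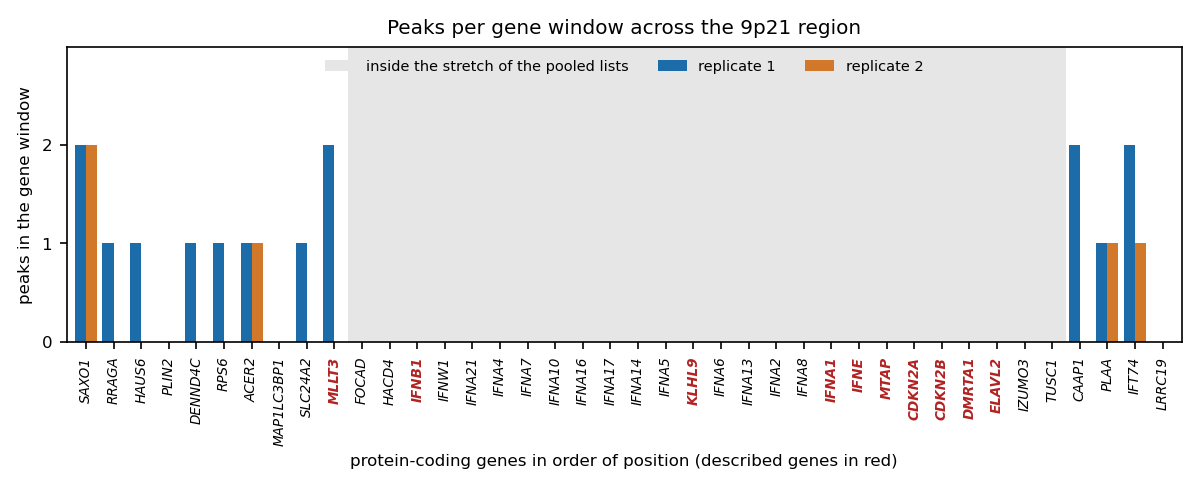
Number of peaks in the window of each of the 40 protein-coding genes from 19 to 27 Mb of chromosome 9, in order of position, for replicate 1 and replicate 2. The 26 genes of the shaded stretch have 0 peaks in both lists, as its definition requires, and no gene of the region has more than 2 in a list.

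MLLT3 stood at the edge. It encodes AF9, a YEATS-domain reader of acylated histones that joins the super elongation complex and DOT1L, and it is a partner of KMT2A in leukaemia fusions. The gene spans 9:20341669-20622499 on the minus strand. In replicate 1 it had 2 peaks, both at its promoter end. The first, at 9:20620865-20621205, lay inside the gene (fold 3.06, −log10 q 1.62). The second, at 9:20623504-20624143, lay 1005 bp before the start, just outside the 1 kb around starts used below. Both flank the promoter window printed above without touching it. No peak of replicate 1 lay in the rest of its 280831 bp, and the nearest peak of replicate 2 was 933 kb away, over the lower-coordinate side. Windows of similar width lacked a peak in 4.19% of genes in replicate 1 and 9.66% in replicate 2.

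The cell cycle inhibitors lay deep in the stretch. CDKN2A (9:21967752-21995324) was 1344 kb from the nearest peak of replicate 1 and 2559 kb from that of replicate 2. CDKN2B (9:22002903-22009313) was 1379 kb and 2594 kb away. Of all autosomal protein-coding genes, 0.889% were as far from a peak as CDKN2A or farther in replicate 1 and 0.256% in replicate 2. Because CDKN2A was chosen for lying in the stretch, these shares only place it and nothing is read from them. The same holds for the shares of windows of similar width given for single members. Most genes touched a peak: 79.8% of spans overlapped one of replicate 1 and 62.1% one of replicate 2.

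MTAP, the phosphorylase that returns methylthioadenosine from polyamine synthesis to methionine, is a larger target. Its span of 138480 bp (9:21802636-21941115) had no peak, and its window had none in either list, while 6.35% of windows of similar width in replicate 1 and 15.5% in replicate 2 had none. The nearest peaks were 1178 kb and 2394 kb away.

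The type I interferon genes among the members are small, intronless genes clustered below MTAP. They encode secreted ligands of the IFNAR1 and IFNAR2 receptor. IFNB1 (9:21077104-21077942), the interferon induced first in most cells after viral sensing, was 453 kb from a peak of replicate 1 and 1668 kb from one of replicate 2. IFNA1 (9:21440439-21441316) was 816 kb and 2032 kb away. IFNE (9:21480839-21482313), which is expressed in epithelium of the reproductive tract, was 857 kb and 2072 kb away. Small windows often lack a peak elsewhere too: for IFNE, 20.8% of windows of similar width had none in replicate 1 and 29.7% in replicate 2. The IFNA genes are close copies of each other, and the sources used here do not give how reads matching several copies were assigned.

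KLHL9 lies among the interferon genes. It encodes an adaptor of the CUL3 ubiquitin ligase that acts on Aurora B in mitosis. Its span (9:21329665-21335404) was 706 kb from the nearest peak of replicate 1 and 1921 kb from that of replicate 2.

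DMRTA1 and ELAVL2 lie higher, toward the centre of the stretch. DMRTA1, a DM-domain transcription factor gene at 9:22446824-22455740, had the largest distance in replicate 2, 3038 kb, and was 1823 kb from a peak of replicate 1. ELAVL2 encodes HuB, a neuronal RNA-binding protein. It spans 160498 bp (9:23690104-23850601) without a peak and was the single member whose nearest peak lay on the upper side in both lists, at 2339 kb in replicate 1 and 2369 kb in replicate 2. In replicate 1, 5.86% of windows of similar width lacked a peak, and in replicate 2 14.4%.

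**Figure D3:**
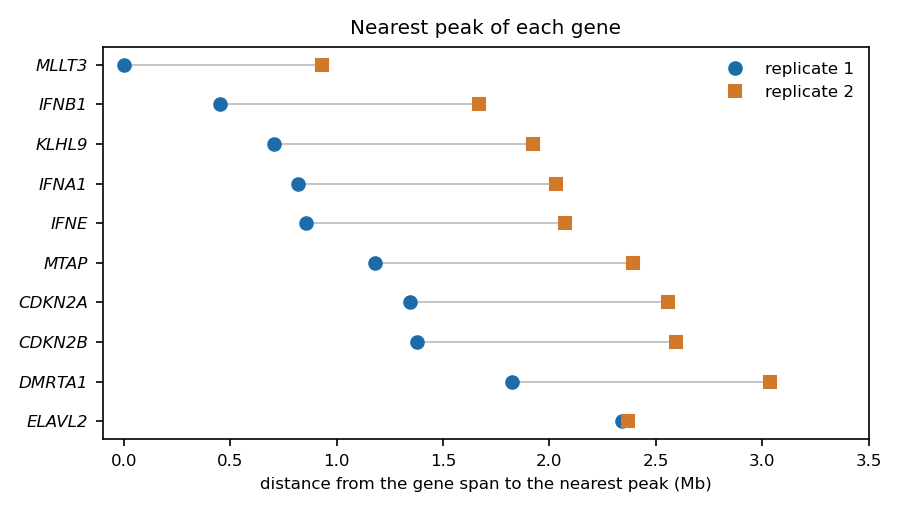
Distance in Mb from the span of each of the 10 genes to the nearest peak of replicate 1 (circles) and replicate 2 (squares), with genes in order of position from the top. Distances are larger in replicate 2 for every gene, least so for ELAVL2 (2339 and 2369 kb), whose nearest peaks are those of the upper border.

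The other genes of the region lay inside the stretch or beside it. Of the 40 protein-coding genes that overlap 19 to 27 Mb, 26 lay inside the stretch, among them FOCAD, HACD4, the rest of the interferon cluster, IZUMO3 and TUSC1. None of the 26 had a peak in its window in either list, which follows from the definition of the stretch, since their windows lie within it. Below the stretch, 8 of 10 genes had a peak in replicate 1 and 2 in replicate 2, whose own longer stretch reaches into this segment. RPS6, a protein of the small ribosomal subunit, had 1 peak in replicate 1 (fold 3.39) and none in replicate 2, and ACER2, an alkaline ceramidase, had 1 in each (3.20 and 2.50). SLC24A2, an exchanger of sodium, calcium and potassium, had 1 peak of replicate 1 in a window of 820438 bp. Above the stretch, 3 of 4 genes had a peak in replicate 1 and 2 in replicate 2. CAAP1 had 2 peaks in replicate 1 (highest fold 3.34) and none in replicate 2. IFT74, a subunit of the intraflagellar transport machinery of cilia, had 2 in replicate 1 (3.36) and 1 in replicate 2 (2.39).

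Promoter composition, which the choice of genes did not use, varied widely among the members. By their CpG-richest RefSeq window (250 bases before to 50 after a start), 7 of the 10 had 13 or more CpG, from 15 in MTAP to 40 in ELAVL2. The 3 interferon genes had 1 or 2. Of all 15101 genes with a window, 11038 had 13 or more, a share near that of the members. The median of all genes was 25 CpG, which 3 of the 10 members reached. GC content ran from 29.7% in IFNE to 74.3% in ELAVL2, against a median of 64.7% over 15101 genes with a window. GGGCGG, the GC box bound by SP1 family factors, was found on either strand in 10 of the 16 member windows and in 56.6% of all windows. The 16 include 6 of ELAVL2, a pair of them overlapping.

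CpG-rich starts usually carried a peak in replicate 1. Among 15101 genes, the share with a peak within 1 kb of the start was 20.7% with 0 to 2 CpG and 81.1% with 28 or more in replicate 1. In replicate 2 these shares were 11.6% and 28.8%. None of the 16 member windows had a peak within 1 kb of its start in either list. For the 9 members inside the stretch this follows from its definition. Inside the stretch 9 genes had a window with 13 or more CpG. By the definition of the stretch, 0 of them had a peak there, so nothing is read from this count. Of all such genes on the autosomes, 80.0% had one in replicate 1 and 29.7% in replicate 2. On the sparse lower side the segments differed. In the adjoining segment from 19 Mb to the lower border, 2 of 8 such genes had a peak within 1 kb in replicate 1 and 1 in replicate 2. The longer stretch of replicate 2 reaches into this segment. From 12 to 19 Mb 0 of 10 had one in either list, and below 7 Mb 9 of 32 had one in replicate 1 and 6 in replicate 2. From 27 to 38 Mb, 60 of 66 had one in replicate 1 and 23 in replicate 2. Starts of this kind without a peak also occur elsewhere on the autosomes, as the autosomal shares already show. The segments were drawn after their values were seen, so nothing further is read from them.

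**Figure D4:**
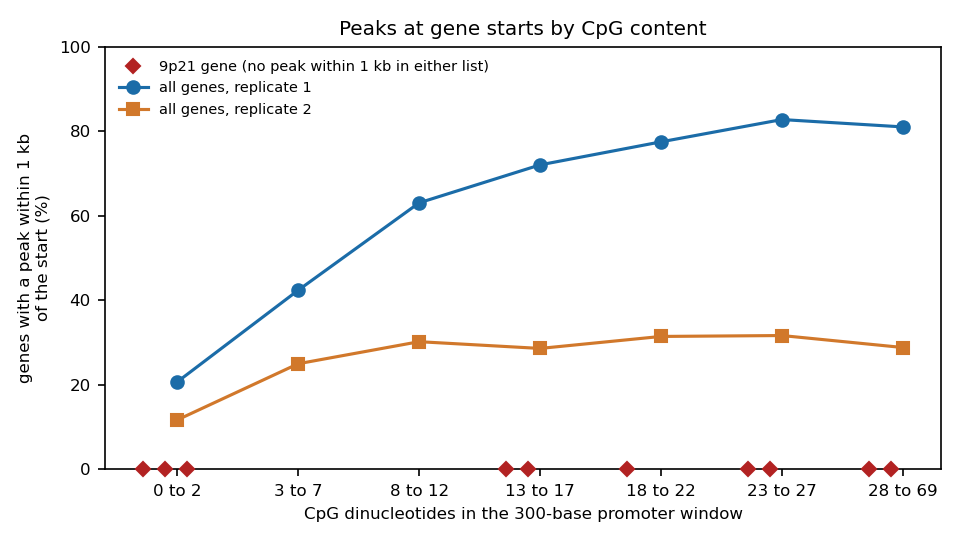
Share of autosomal protein-coding genes with a peak within 1 kb of the start, in percent, by the number of CpG in the promoter window, for replicate 1 (circles) and replicate 2 (squares). Diamonds at 0 place the 10 genes of the 9p21 region by their CpG class, 3 with 0 to 2 CpG and 7 with 13 or more, and none has a peak within 1 kb in either list.

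Most genes of the same pathways elsewhere in the genome carried peaks, as did most genes of the background, with 85.9% of autosomal protein-coding genes in replicate 1 and 76.5% in replicate 2. These lists are small, and nothing particular is read from them. Of 14 genes of the INK4 and CIP/KIP inhibitors and their targets, 13 had a peak in replicate 1 and 11 in replicate 2. CDKN2C, which encodes p18INK4c, the paralogue of CDKN2A on chromosome 1, had 4 peaks in replicate 1 (highest fold 3.56) and 1 in replicate 2 (2.16). CDK6, a target of p16INK4a, had 9 and 7 with the highest fold of the list in replicate 2 (2.81), and the effector RB1 had 2 and 0. CDKN1C, which encodes the inhibitor p57KIP2, was the one gene of this list with no peak in either.

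Of 10 autosomal genes of methionine salvage and of dependence on MTAP, 10 had a peak in replicate 1 and 9 in replicate 2. MRI1, an isomerase that acts downstream of MTAP, had 7 and 6 peaks, with folds of up to 4.25 and 2.63. ENOPH1, a later enzyme of the same route, had the highest fold of the list in replicate 2 (3.01). PRMT5, the arginine methyltransferase on which cells without MTAP depend, had 4 and 2 (3.91 and 2.14).

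Of the 17 type I interferon genes of 9p, 16 lay in the stretch and had no peak in either list. IFNK, an interferon of keratinocytes and the remaining one, lies above 27 Mb and had 2 peaks in replicate 1 (highest fold 2.88) and none in replicate 2. Of 11 genes for the receptor and for sensors upstream of interferon, 10 had a peak in replicate 1 and 7 in replicate 2. MAVS, the mitochondrial adaptor of RNA sensing, had 10 and 4 (4.42 and 2.22). TYK2, a kinase of the receptor, had the highest fold in replicate 2 (2.91), and IRF7, a transcription factor of interferon genes, had no peak in either.

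Paralogues and partners of the other members had peaks in replicate 1 throughout. The DMRT family had peaks in 6 of 6 genes in replicate 1 and in 5 in replicate 2, including DMRT1, a factor of testis development on the same arm (8 and 5 peaks, with the highest fold of the family in replicate 1, 3.67). In replicate 2 the highest was 2.83, at DMRTB1. The ELAVL family had peaks in 3 of 3 genes in both lists, with 17 and 8 at ELAVL1 (highest fold in replicate 1, 3.77) and 3 and 8 at ELAVL4 (highest in replicate 2, 3.01). Partners of KLHL9 had peaks in 3 of 3 autosomal genes in replicate 1 and in 2 in replicate 2, and AURKB, its substrate, had 5 and 2 (highest fold 3.74 and 2.55). Of 10 genes of the super elongation and DOT1L complexes, 10 had a peak in replicate 1 and 9 in replicate 2. The highest folds were 4.34 at CDK9, the kinase of the elongation factor P-TEFb, in replicate 1 and 2.90 at MLLT10 in replicate 2. MLLT1, the closest paralogue of MLLT3, had 16 and 7, where MLLT3 had 2 and 0.

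Stretches of this length without a peak were rare and mostly poor in genes. In the pooled lists the 9p21 stretch was the seventh longest of 208665 distances between neighbouring peaks on the autosomes, and 65 of these were 1 Mb or longer. It ranked 8 in replicate 1 and 4 in replicate 2. Among gene-bearing stretches, defined as those with a protein-coding gene and no run of 1 Mb free of RefSeq genes, it ranked 1 in the pooled lists, 2 in replicate 1 and 1 in replicate 2. Each of the 6 longer stretches of the pooled lists held a run of 1 Mb or more without any RefSeq gene, whereas the longest such run in the 9p21 stretch was 0.521 Mb. Of 18 others between 0.5 and 2 times its length, 8 held no protein-coding gene, the median was 1 gene, and 3 held more than its 26. Of these 18, 13 held a gene-free run of 1 Mb or more. Among the 34 gene-bearing stretches of 1 Mb or more, the median was 4.91 protein-coding genes per Mb, against 4.67 at 9p21. Its 26 genes include 16 type I interferon genes.

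**Figure D5:**
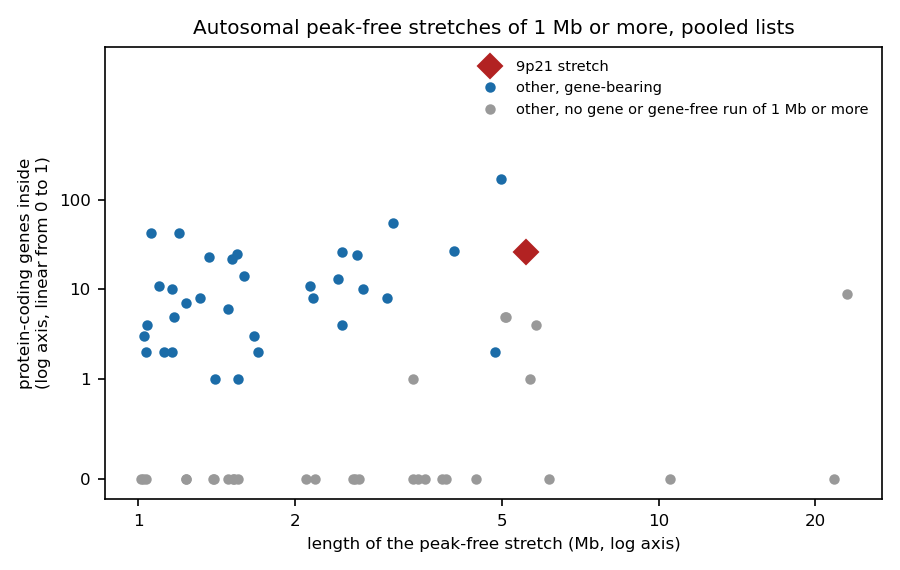
Length in Mb (log axis) and number of protein-coding genes (log axis, linear from 0 to 1) of the 65 peak-free stretches of 1 Mb or more in the pooled lists. The diamond marks the 9p21 stretch, with 5.57 Mb and 26 genes, the longest that holds a protein-coding gene and no gene-free run of 1 Mb or more.

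Of the 5 gene-holding stretches nearest in length, 4 included long parts without genes. The one on chromosome 7 (7:57353839-63015771, 5.66 Mb) held 1 protein-coding gene, ZNF716. Those on chromosome 22 (22:11038064-16844184, 5.81 Mb), chromosome 11 (11:50412803-55494070, 5.08 Mb) and chromosome 2 (2:89844821-94917135, 5.07 Mb) held 4, 5 and 5. Their gene-free runs measured 3.12, 2.45, 4.17 and 2.16 Mb. The fifth (6:28506966-33488464, 4.98 Mb) differed, with 171 protein-coding genes from GPX5 to ZBTB9. It covers the major histocompatibility complex. Assembly gaps were not located here, since the sequence used was limited to promoter windows. The lists also hold 24 peaks in replicate 1 and 3 in replicate 2 on alternate scaffolds, which are further versions of some regions. Whether such scaffolds affect any of these stretches was not tested.

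Gene-bearing stretches of similar length, of 0.5 to 2 times, numbered 5 besides 9p21, with borders and flanks of different kinds. The chromosome 6 stretch ended within 2.49 kb in both lists on the lower side and within 2.15 kb on the upper, with 56.5 and 24.5 peaks per Mb in the 2 Mb below it and 193.5 and 118 above it in replicates 1 and 2. A stretch of 3.09 Mb on chromosome 17 (17:35765323-38853018), with 55 genes from TAF15 to SPMAP1, ended within 0.407 and 18.4 kb. It too lay between dense flanks, with 121 and 67.5 peaks per Mb below and 144 and 92 above. A stretch of 4.04 Mb on chromosome 15 (15:28914898-32952840), with 27 genes, ended within 15.5 and 63.7 kb. The 9p21 stretch had 3.5 and 2 peaks per Mb in the 2 Mb below and 26.5 and 14 above. These flanks are counted from the borders of the pooled stretch, so the lower one includes part of the longer stretch of replicate 2. Counted from its own lower border, replicate 2 had 3.5 per Mb below. Sparse flanks were also seen at the stretch of 4.85 Mb around PTPRD on the same arm (9:7238829-12091693), with 2.5 and 3 peaks per Mb below and 1 and 1.5 above. There the flanks include parts of the longer stretch of replicate 1 (6.22 Mb). The lower and upper borders of the lists lay 1216 and 30.9 kb apart at 9p21 and 336 and 1033 kb apart at the PTPRD stretch, which held 2 protein-coding genes. The last, 3.01 Mb on the long arm of chromosome 9 (9:65411551-68417011), held 8 genes. Of the 65 stretches of 1 Mb or more, 9 were on chromosome 9, 5 of them below 38 Mb.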

How the data were processed

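Deposited broad peak lists of 2 ChIP replicates were used. The submitters' processing notes list Bowtie2 2.2.9, MACS2 2.1.1 and hg38 with no role for each, and thresholds are not known here. Peaks were called per replicate, per the labels' design text. In the deposited lists, column 7 holds fold enrichment (a ratio) over the caller's background, columns 8 and 9 the −log10 p-value and −log10 q-value, and column 5 a score derived from the q-value, which was not used. Merge is part of the replicate 2 peak names and is not explained, so whether that list rests on replicate 2 alone is unknown.

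With Python 3.11.15 and pandas 2.3.3, peaks of chromosomes 1 to 22 were overlapped (at least 1 bp) with gene spans plus 10 kb taken from RefSeq (GRCh38.p14, the build of the lists). A stretch is the distance between neighbouring merged peaks of a chromosome. The functions were tested on simulated data with planted stretches. Gene starts and promoters came from RefSeq windows, which 15101 of 19126 genes had. Named were the 10 members, protein-coding genes of the region, genes of the 5 stretches nearest in length, and of each pathway list genes without a peak and with the highest fold (1 such result is not reported here); other genes of the lists, and the further gene-bearing stretches, were named after their values were seen. The segments of chromosome 9 set beside the stretch were also drawn after their values were seen.

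The members and lists were chosen with earlier results of these data known. With 1 list per replicate and no counts, no test was made, and no p-value of this work is given. Alternatives were a minimum −log10 q of 2, the upper 50% of peaks by fold, equal numbers of peaks, each list alone, other windows and overlaps, 1 border peak ignored, gene-bearing stretches alone, and a narrower range of lengths.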

Additional observations from a re-analysis of the deposited data

How the results depend on the processing

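The count of members without a peak stayed at 9 under 7 of the alternatives tried (a −log10 q of at least 2, the peaks of higher fold, equal numbers of peaks, gene spans alone, 5 kb and 50 kb windows, and 50% of the peak in the window). None of these could lower the count. Fewer peaks or narrower windows only remove overlaps, and the closest of the 9, IFNB1, lay 453 kb from a peak, beyond 50 kb. The only change open to them was the loss of the peaks of MLLT3, so this says little about stability. Leaving out 1 replicate gave 9 to 10 members, a stretch of 5.57 to 6.81 Mb and a rank of 4 to 8 among autosomal stretches. The length was 6.81 Mb and the rank 4 without replicate 1, where MLLT3 also had no peak, so the lower border and the peaks of MLLT3 rest on replicate 1. Between the lists the SD was 0.881 Mb for length and 2.83 for rank. The length was 5.60 Mb with a −log10 q of at least 2 and 5.59 Mb with 1 border peak ignored. Counted among gene-bearing stretches alone, the rank was 1, since stretches with long gene-free runs drop out by construction. With a narrower range of lengths around that of 9p21, 8 other stretches remained in place of 18. No paired analysis was possible because each replicate has a single peak list, and no result comes from a test. Depth is unknown and the median −log10 q was 1.91 and 1.80 in replicates 1 and 2, where the lowest was 1.30, so weak enrichment inside the stretch cannot be told from none.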
